A study of Arabidopsis thaliana with 35 samples.

Results

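The response of ethanol-treated *A. thaliana* shoots to the first 10 days without watering was read from 10 of the 35 libraries of the RNA-seq series, 5 at 10 days after drought (DAD) and 5 at 0 DAD. Both groups were of the Col-0 ecotype, had grown at 22°C with 16 h of light per day, first for 9 days on MS medium and then for 5 days on ceramic soil. They had then stood in 10 mM ethanol for 3 days. At 0 DAD the ethanol treatment had just ended, and at 10 DAD the plants had received no further water for 10 days. No watered ethanol-treated plants of the later age were analysed here, so the effects of the drying soil and of 10 more days of growth cannot be told apart. The libraries were chosen by their labels alone, and all 27417 counted genes were used. The labels do not say whether the 5 libraries of a group came from separate pots, so the p-values measure the spread between these libraries.

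When the soil dries, a plant shoot closes its stomata, slows cell division and cell expansion, and later switches on protective proteins such as LEA proteins, dehydrins and enzymes of compatible solutes. Many of the protective genes are driven by the hormone abscisic acid (ABA) through a promoter element called the ABRE, and others by DREB proteins through the DRE element. Growth depends on mitosis in young leaves, on wall-loosening proteins (expansins and xyloglucan endotransglucosylase/hydrolases, XTHs) and on water channels (aquaporins), while older leaves recover nitrogen by breaking down chlorophyll and photosynthetic proteins.

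The libraries held 3781405 to 9786902 counts, and the totals did not differ between 10 and 0 DAD beyond their spread (exact permutation test, 2-sided, p = 0.341, 5 libraries each; p = 0.0238, with fewer at 10 DAD, without replicate 4 at 0 DAD). Chloroplast genes took 2.44% ± 0.689 of the counts at 10 DAD and 2.79% ± 0.215 at 0 DAD (SD, n = 5; exact permutation test, p = 0.317, and p = 0.0397 without replicate 2 at 10 DAD). The top 10 genes of each library made up a smaller share at 10 DAD, 9.90% ± 0.676, than at 0 DAD, 12.5% ± 0.696 (SD, n = 5; exact permutation test, p = 0.00794, the smallest that 5 against 5 allow; adjusted over 3 measures, 0.0238). Replicate 4 was the library at 0 DAD with the fewest counts, 3781405. Calls of the genes described that changed without it are given below. The changes were drawn out most by replicate 5 at 10 DAD, which held the lowest normalized count of its group for 39.2% of the genes called lower and the highest for 42.1% of those called higher. Replicate 1 at 0 DAD was the opposite extreme, with the highest count of its group for 46.9% of the genes called lower. Leaving out any 1 of the 10 libraries gave 930 to 1128 genes higher and 1930 to 2180 lower, in the terms of the next paragraph. All 6 root marker genes were too low to be tested, and of the 9 genes of floral organ identity 3 were tested. *RBCS1A*, a small subunit of Rubisco and a leaf marker, was abundant in all 10 libraries.

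Of 16918 genes tested with edgeR's quasi-likelihood test, 971 were called higher and 2000 lower at 10 DAD. A call needed an adjusted p (false discovery rate) below 0.1 and a change of at least 1 log2 unit. These calls made up 5.74% and 11.8% of the genes tested. The counts of calls in the gene groups below stand beside these shares. With no demand on the fold, 52.6% passed the false discovery rate. The median log2 fold change over all genes tested was 0.01. Scaling by library size alone, without the TMM factors, moved that median to 0.24 and turned the balance to 1725 higher and 1446 lower, so the counts of higher and lower genes are relative to the TMM scale. Group counts on the scale of library size alone, given below, stand beside these 1725 and 1446 of 16918 genes. Among the genes called, the normalized counts of the 5 libraries at 10 DAD did not overlap those at 0 DAD for 760 higher and 1646 lower genes. Over all genes tested, 14.3% lay higher and 17.4% lower without overlap. Levels of single genes are given below as the deposited normalized counts of the 5 libraries, fold changes as log2 of 10 over 0 DAD with their standard error, and adjusted p-values from edgeR over all genes tested. The chart shows the calls per gene group. Called genes of the cell cycle, wall-loosening, aquaporin and chlorophyll groups were mostly lower, and those of the drought, senescence and sulfur groups were higher. The light reaction genes, with 7 lower and 2 higher of 47, were near the shares of all genes tested. None of the 15 photorespiration genes was called.

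**Figure D1:**
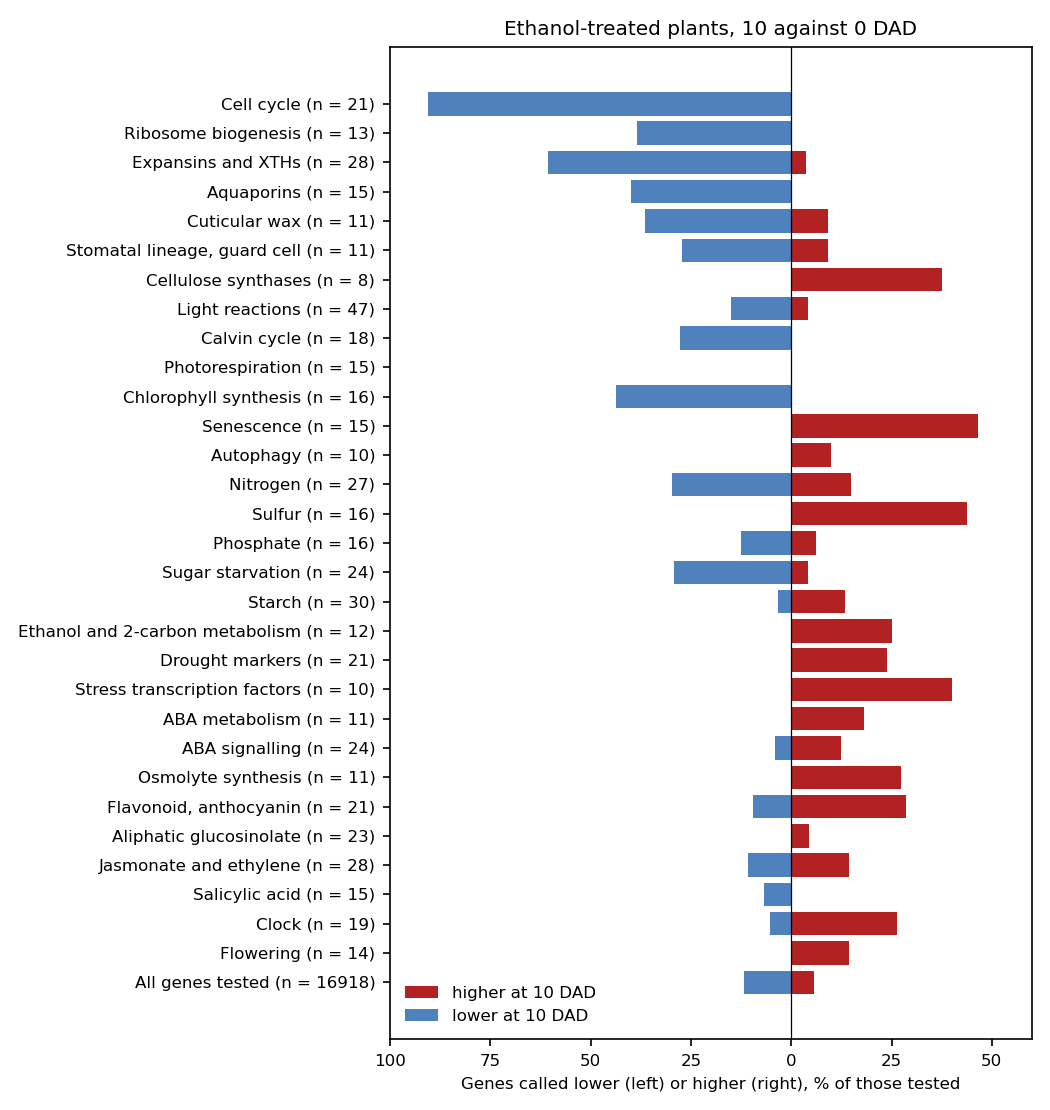
Share of the tested members of 30 gene groups and of all genes tested that were called higher (red, right) or lower (blue, left) in ethanol-treated plants at 10 DAD against 0 DAD; the number tested stands beside each name. The cell cycle group has 19 of 21 genes called lower, and the senescence and sulfur groups have 7 of 15 and 7 of 16 called higher.

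Drought genes had moved only in part. Of 21 drought markers tested, 5 were called higher and 0 lower, against 5.74% and 11.8% of all genes tested. Their median log2 fold change was 0.49, against 0.01 over all genes. On the scale of library size alone, 9 were higher, as were 1725 of all 16918 genes. *GOLS2*, a galactinol synthase that makes the precursor of raffinose-family osmolytes, had the largest change among the osmolyte genes. Its normalized counts were 1079.7, 850.4, 685, 1575 and 1547 at 10 DAD, against 124, 172, 158, 338 and 111 at 0 DAD (log2 fold change 2.72 ± 0.38, adjusted p = 4.14e-04). The related *GOLS3* (1.86) and *GOLS1* (1.54) rose as well, while the proline synthesis gene *P5CS1* had a log2 fold change of 0.40 and was not called. *LTP3*, a lipid transfer protein, had 2213, 1392, 1575, 1930.1 and 2213 normalized counts at 10 DAD and 609.8, 742, 692, 690.2 and 555 at 0 DAD (log2 fold change 1.52 ± 0.13, adjusted p = 8.63e-09). Its neighbour *LTP4* (2.15), the chloroplast protease subunit *ERD1* (1.13) and the drought-inducible linker histone *HIS1-3* rose too. *HIS1-3* had 1001, 894, 914, 1174 and 1329 at 10 DAD and 192, 319, 247, 369 and 227 at 0 DAD. The fifth called marker, *LEA14*, lay at the threshold, with a log2 fold change of 1.02 that was 0.941 without replicate 3 at 0 DAD and 0.995 without replicate 1 at 10 DAD, not called in either case.

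The textbook pair of desiccation genes, *RD29A* and *RD29B*, lies in tandem on chromosome 5. Their promoters are shown because they hold the elements through which drought acts on them. The 250 bases before each annotated gene start (TAIR10.1, plus strand; chr5:21240467-21240716 and chr5:21236771-21237020) are printed with the DRE core CCGAC and the ABRE core ACGTG in capitals, both on either strand.
RD29A: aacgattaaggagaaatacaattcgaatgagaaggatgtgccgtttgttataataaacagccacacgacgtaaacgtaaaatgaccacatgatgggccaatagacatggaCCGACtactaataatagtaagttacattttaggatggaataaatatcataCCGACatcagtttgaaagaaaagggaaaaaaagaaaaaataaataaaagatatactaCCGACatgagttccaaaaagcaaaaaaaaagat
RD29B: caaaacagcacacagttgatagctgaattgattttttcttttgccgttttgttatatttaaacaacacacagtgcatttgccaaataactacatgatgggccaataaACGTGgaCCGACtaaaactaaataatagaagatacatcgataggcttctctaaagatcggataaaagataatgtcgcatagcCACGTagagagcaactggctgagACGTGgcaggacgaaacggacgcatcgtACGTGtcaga
The *RD29A* window holds 3 DRE cores and no ABRE core, and the *RD29B* window holds 1 DRE core and 4 ABRE cores. Bases outside these windows, including those after the annotated gene start, were not searched. The counts therefore do not show that *RD29A* lacks an ABRE. *RD29A* had 1804, 1544, 1210.1, 2134 and 1874 normalized counts at 10 DAD, against 852, 853, 748, 1419 and 724 at 0 DAD (log2 fold change 0.92 ± 0.21, adjusted p = 0.00466). It passed the false discovery rate but not the fold threshold. Only replicate 4 at 0 DAD reached into the range of 10 DAD, and without that library the log2 fold change was 1.13 and was called, as it was without replicate 3 at 10 DAD (1.02). *RD29B* had 183, 256, 214, 211 and 184 normalized counts at 10 DAD and 208, 220.4, 206, 187 and 184 at 0 DAD (log2 fold change 0.08 ± 0.12, adjusted p = 0.644), with the groups fully interleaved. *LEA7* was likewise near its starting level, with 661, 896, 647, 992 and 747 normalized counts at 10 DAD and 669.6, 761, 579.7, 631 and 577 at 0 DAD (log2 fold change 0.31 ± 0.12, adjusted p = 0.0412). The dehydrin *RAB18* had a log2 fold change of 0.20 and the LEA protein *LEA4-5* of 0.34, and neither was called. For scale, ethanol-treated plants at 13 DAD (5 libraries) held 5599 to 12714 of *RD29A*, 1426 to 8921 of *RD29B* and 2481 to 31626 of *LEA7* in normalized counts.

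In the 250 bases before the gene start, at least 1 ABRE core on either strand was found for 11 of 21 drought markers tested, against 23.7% of all genes tested, 27.7% of the genes called higher and 23.3% of those called lower. A DRE core was found for 8 of 21 drought markers, against 13.3% of all genes tested, 11.2% of the higher and 11.5% of the lower genes. The ABRE core is also contained in the G-box CACGTG. No test was run on these shares.

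**Figure D2:**
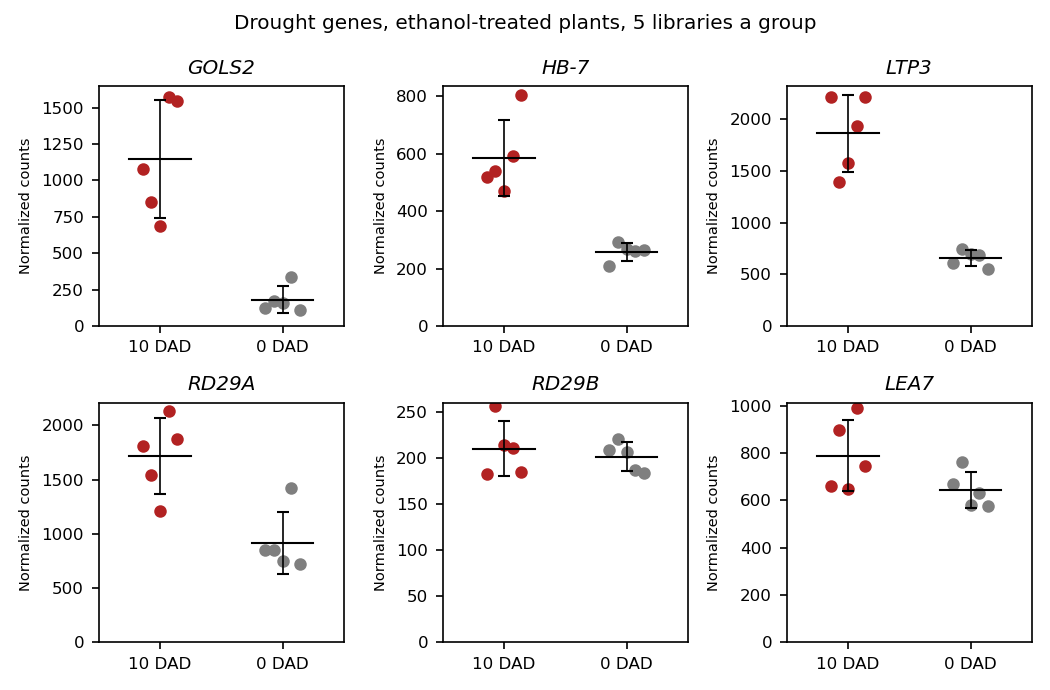
Normalized counts of 6 drought genes in ethanol-treated plants at 10 DAD (red, left) and 0 DAD (grey, right); points are libraries, the line and bar are the mean and SD of 5 libraries. *GOLS2*, *HB-7* and *LTP3* are separated between the groups, *RD29A* overlaps through 1 library at 0 DAD, and *RD29B* and *LEA7* overlap widely.

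Few genes of the ABA pathway were called. *NCED3*, the enzyme that limits drought-induced ABA synthesis, had 133, 104, 91.1, 131 and 86.3 normalized counts at 10 DAD, against 61.5, 77.3, 66.7, 62.4 and 75.2 at 0 DAD, without overlap (log2 fold change 0.68 ± 0.17, adjusted p = 0.00212), below the fold threshold. *CYP707A2*, an ABA 8'-hydroxylase that breaks the hormone down, rose by 1.40 log2 units. Among 24 genes of ABA perception and signalling, 3 were higher (5 without replicate 2 or without replicate 4 at 0 DAD) and 1 lower, against 5.74% and 11.8% of all genes tested, with a median log2 fold change of 0.52. More genes of this list were called higher than lower, the reverse of all genes tested on the TMM scale. Of the 24 genes, 18 had positive and 6 negative log2 fold changes. Within the list, 13 genes lay higher and 1 lower at 10 DAD without overlap, against 14.3% and 17.4% of all genes tested. The receptor *PYL9* had 278, 299, 189.9, 375 and 389 normalized counts at 10 DAD and 109, 92.8, 102, 110.1 and 119 at 0 DAD (log2 fold change 1.54 ± 0.16, adjusted p = 2.02e-07). The phosphatase *HAI2* (1.51) and the bZIP factor *ABF3* (1.06) also rose, and the receptor *PYL6* (-1.26) fell. *PYL6* lost its call without replicate 1 or replicate 4 at 10 DAD (-1.53 to -0.97 over the 10 libraries left out), and on the scale of library size alone. Among 10 stress transcription factors, 4 rose and none fell. The ABA-inducible homeodomain genes *HB-7* and *HB-12* rose by 1.19 and 1.14. *HB-7* had 519, 541, 469.9, 591 and 806 normalized counts at 10 DAD and 207, 292, 267, 261 and 264 at 0 DAD. The DRE-binding factors *DREB1A* and *CBF2*, best known from the cold response, rose by 1.56 and 1.65. *DREB2A*, the factor of the dehydration response, had 69.2, 35.6, 83.4, 35.9 and 45.5 normalized counts at 10 DAD against 31.1, 38.7, 28.5, 27.5 and 36.8 at 0 DAD and was not called (log2 fold change 0.72 ± 0.26, adjusted p = 0.0284).

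Genes of cell division fell most uniformly. Of 21 cell cycle genes tested, 19 were called lower and none higher, with a median log2 fold change of -2.26, and the other two, *CYCD3;2* and *CYCD3;3*, had -0.72 and -0.63. *KN*, the syntaxin of the cell plate in cytokinesis, had 23.1, 27.5, 29.7, 32.5 and 17.5 normalized counts at 10 DAD, against 258, 158, 247, 196 and 281 at 0 DAD (log2 fold change -3.10 ± 0.19, adjusted p = 4.89e-11). The libraries of the groups were far apart for this gene. *PCNA1*, the sliding clamp of DNA replication, had 19.1, 20, 36.4, 29 and 18.7 at 10 DAD and 165, 124, 134, 73.4 and 101 at 0 DAD (log2 fold change -2.27 ± 0.24, adjusted p = 8.65e-08). The mitotic cyclin *CYCB1;2* had 15.1, 8.16, 20.1, 11.1 and 11.7 at 10 DAD and 93.4, 95.9, 115, 71.6 and 104 at 0 DAD (log2 fold change -2.86 ± 0.24, adjusted p = 4.52e-09). A stretch of its transcript is nearly identical to that of another counted gene, so its reads may be shared. The kinesin *HIK* (-3.22), the kinase *CDKB1;2* (-3.32), the replication factor *MCM5* (-2.26) and the D-type cyclin *CYCD3;1* (-1.79) fell with them. In whole shoots, fewer dividing cells and less RNA of these genes per cell cannot be told apart.

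Promoters of mitotic genes often carry the MSA element, with the core AACGG, to which MYB3R transcription factors bind. The windows of 2 B-type cyclins that fell are shown as examples, *CYCB1;1* (-1.91) from chr4:17624309-17624558 on the minus strand and *CYCB2;2* (-2.28) from chr4:16901346-16901595 on the plus strand (TAIR10.1, 250 bases before the gene start). Capitals mark the core on either strand.
CYCB1;1: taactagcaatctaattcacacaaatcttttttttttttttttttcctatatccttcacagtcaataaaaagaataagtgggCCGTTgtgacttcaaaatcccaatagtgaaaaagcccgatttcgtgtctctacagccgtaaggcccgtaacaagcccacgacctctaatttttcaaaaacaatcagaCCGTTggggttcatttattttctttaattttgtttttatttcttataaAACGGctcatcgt
CYCB2;2: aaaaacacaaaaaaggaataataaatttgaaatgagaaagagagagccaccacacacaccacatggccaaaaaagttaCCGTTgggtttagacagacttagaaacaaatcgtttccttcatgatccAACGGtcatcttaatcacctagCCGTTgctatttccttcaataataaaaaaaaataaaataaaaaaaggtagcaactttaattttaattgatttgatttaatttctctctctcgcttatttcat
Each window holds 3 cores. Over the cell cycle genes tested, 12 of 21 windows hold at least 1, against 22% of all genes tested, 18.5% of the genes called higher and 23.4% of those called lower. In the other gene lists searched, the share ran from 13.3% for the aquaporins to 53.8% (7 of 13) for the ribosome assembly genes described next. The core was thus not particular to the cell cycle genes. This motif was added after the values of the genes were known, and the windows were chosen for their 3 cores.

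Nucleolar genes of ribosome assembly fell in part, with 5 of 13 called lower, none higher, and a median log2 fold change of -0.88. All 13 had negative log2 fold changes. *NOP56*, a core protein of box C/D snoRNPs, had 111, 99.4, 126, 139 and 138 normalized counts at 10 DAD and 366, 319, 296, 262 and 288 at 0 DAD (log2 fold change -1.31 ± 0.13, adjusted p = 3.53e-08). The pseudouridine synthase *NAP57* had -1.34 and the fibrillarin *FIB2* had -2.22. Site II elements (TGGGCC), common in promoters of ribosomal genes, stood in 7 of 13 windows of this group, against 17.4% of all genes tested, and in 8.84% of the genes called higher and 19.2% of those called lower. Telo boxes (AAACCCTA) stood in 2.18% of the higher and 4.87% of the lower genes, against 3.46% of all.

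Wall-loosening genes and water channels fell together with cell division. Of 28 expansin and XTH genes tested, 17 were lower and 1 higher, with a median log2 fold change of -1.33. *XTH9* had 302, 309, 309.7, 197 and 217 normalized counts at 10 DAD, against 2633, 2128, 2025, 1907 and 1964 at 0 DAD (log2 fold change -2.98 ± 0.14, adjusted p = 4.82e-12). *XTH16* had 19.1, 24.5, 29.7, 19.7 and 1.17 at 10 DAD and 540.1, 424, 397, 345 and 456 at 0 DAD (log2 fold change -4.45 ± 0.34, adjusted p = 1.46e-06). *XTH17* was nearly absent at 10 DAD, with 0, 0, 0.959, 0.854 and 1.17 normalized counts (at most 1 read in a library), against 63.9, 33.3, 14.2, 33 and 51 at 0 DAD (adjusted p = 1.29e-07). *XTH15* (-3.91), *XTH8* (-2.79), *EXPA6* (-1.79) and *EXPA10* (-1.72) fell as well, while *EXPA1* (-0.37) was not called. The 1 higher member, *XTH24*, had a log2 fold change of 1.02 and lost its call without replicate 1, 2 or 5 at 0 DAD or replicate 4 or 5 at 10 DAD (0.79 to 1.15 over the 10 libraries left out).

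Of 15 aquaporins tested, 6 were lower and none higher (median -0.78). *PIP2;7*, a water channel of the plasma membrane, had 1029, 1108, 1147, 1020.2 and 833 normalized counts at 10 DAD and 6424, 5318, 5137, 4716 and 5561 at 0 DAD (log2 fold change -2.39 ± 0.11, adjusted p = 1.03e-12). Its relatives *PIP1;3* (-1.75) and *PIP2;8* (-2.52) and the tonoplast channel *TIP2;1* (-3.46) also fell. The abundant isoforms *PIP1;1* (0.11) and *PIP2;2* (0.17) were not called.

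The 12 largest decreases were in genes of varied annotation. *PDF1*, a proline-rich protein of the outermost cell layer of the shoot, had 177, 164, 69, 103 and 95.7 normalized counts at 10 DAD, against 2927, 2707, 2754, 2876 and 2740.2 at 0 DAD (log2 fold change -4.50 ± 0.23, adjusted p = 3.93e-08). The lipase *LTL1*, of the GDSL family, had 60.2, 97.9, 37.4, 58.1 and 58.3 at 10 DAD and 1153, 1273, 1107, 1323 and 1047 at 0 DAD (log2 fold change -4.21 ± 0.19, adjusted p = 3.88e-10). An uncharacterized GDSL-like lipase, *AT5G45670*, had 23.1, 11.1, 6.71, 7.69 and 14 at 10 DAD and 400.0, 345, 413, 240.5 and 370.3 at 0 DAD (log2 fold change -4.83 ± 0.24, adjusted p = 3.59e-11). The cutinase *CDEF1* (-4.42), the cytochrome P450 *CYP77B1* (-4.49), the fatty acid desaturase family gene *AT1G06360* (-4.41) and the glycine-rich protein gene *AT4G29020* (-4.78) fell to a similar extent. The other genes of the 12 were *XTH17* and *XTH16*, the alpha/beta-hydrolase superfamily gene *AT3G05600* (-5.54), the fatty acid desaturase *ADS1* (-4.39), *SOB5* (-4.40) and the uncharacterized *P1R3* (-4.37). They were named for the size of their change, and *LTL1*, which is not among them, for its difference from water-treated plants. In the fixed list of 11 wax genes tested, 4 fell and 1 rose, against 11.8% and 5.74% of all genes tested. *CER1*, of alkane synthesis, had 165, 109, 105, 59 and 95.7 normalized counts at 10 DAD and 375, 359, 277, 363 and 234 at 0 DAD (log2 fold change -1.58 ± 0.22, adjusted p = 6.56e-05). *CER2* (-1.53), *KCS1* (-1.64) and *LTPG1* (-2.33) fell with it. *MAH1*, which hydroxylates wax alkanes and is best known from stems, went the other way, with 100.3, 50.5, 43.2, 17.9 and 84 at 10 DAD and 1.64, 4.64, 3.56, 1.84 and 5.02 at 0 DAD (log2 fold change 4.04 ± 0.47, adjusted p = 8.26e-07).

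Of 11 genes of the stomatal lineage and guard cells tested, 3 fell and 1 rose, against 11.8% and 5.74% of all genes tested. The peptide *EPFL9* (stomagen), which promotes stomatal formation, had 28.1, 40.1, 27.8, 25.6 and 5.83 normalized counts at 10 DAD and 196, 196, 151, 117 and 169 at 0 DAD (log2 fold change -2.65 ± 0.28, adjusted p = 1.49e-06). The receptor-like protein *TMM* of the stomatal lineage had 19.1, 7.42, 3.84, 5.98 and 0 at 10 DAD and 84.4, 84.3, 51.6, 64.2 and 77.7 at 0 DAD (log2 fold change -3.27 ± 0.43, adjusted p = 1.23e-05). *EPF2*, a peptide of early stomatal precursors, had 0, 3.71, 4.79, 0.854 and 0 at 10 DAD and 44.3, 31.7, 19.6, 20.2 and 38.5 at 0 DAD (adjusted p = 8.82e-06). Genes of mature guard cells had log2 fold changes of -0.27 for the potassium channel *KAT2* and -0.39 for the kinase *HT1*, neither of them called. The anion channel *SLAC1*, which carries the ion efflux of closing guard cells, had 117, 74.9, 70, 94.8 and 73.5 at 10 DAD and 44.3, 30.9, 56.9, 42.2 and 24.2 at 0 DAD (log2 fold change 1.14 ± 0.23, adjusted p = 3.27e-04). Its call was lost without replicate 5 at 0 DAD (0.99).

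**Figure D3:**
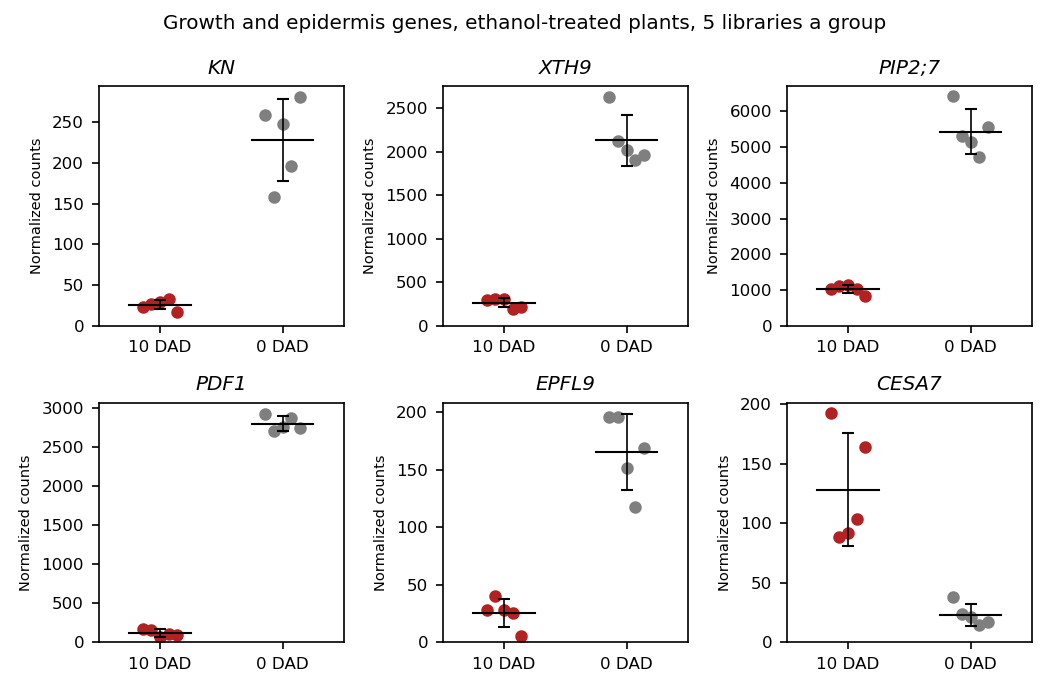
Normalized counts of 6 genes of growth, epidermis and secondary walls in ethanol-treated plants at 10 DAD (red, left) and 0 DAD (grey, right); points are libraries, the line and bar are the mean and SD of 5 libraries. *KN*, *XTH9*, *PIP2;7*, *PDF1* and *EPFL9* lie lower at 10 DAD and *CESA7* higher, all without overlap.

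Secondary walls went in the opposite direction. The 3 cellulose synthases of secondary walls rose, and the 5 of primary walls had log2 fold changes from -0.27 to 0.09 and were not called. *CESA7* had 193, 88.3, 92.1, 103 and 165 normalized counts at 10 DAD and 38.5, 24, 21.3, 14.7 and 17.6 at 0 DAD (log2 fold change 2.42 ± 0.27, adjusted p = 1.04e-06). *CESA4* rose by 2.18 and *CESA8* by 1.80. The 12 largest increases included genes of a peroxidase, a laccase and a cupredoxin superfamily protein. *PER64*, a peroxidase of lignin deposition, had 209.7, 152, 94.9, 102 and 181 at 10 DAD and 8.2, 5.41, 1.78, 1.84 and 1.67 at 0 DAD (log2 fold change 5.16 ± 0.36, adjusted p = 2.18e-09). The laccase *LAC2* had 79.3, 31.9, 38.4, 24.8 and 64.2 at 10 DAD and 3.28, 2.32, 8.89, 3.67 and 3.34 at 0 DAD (log2 fold change 3.44 ± 0.43, adjusted p = 1.31e-06). The cupredoxin gene *AT1G22480* had 154, 58.6, 117, 103 and 156 at 10 DAD and 1.64, 2.32, 1.78, 1.84 and 10.9 at 0 DAD (log2 fold change 4.89 ± 0.43, adjusted p = 2.24e-07). Replicate 1 at 10 DAD held the highest level of *PER64*, *LAC2*, *CESA4* and *CESA7*. Other large increases were in genes of varied annotation. *AT1G13635*, a DNA glycosylase superfamily gene, had 78.3, 35.6, 34.5, 30.8 and 37.3 at 10 DAD and 0, 0, 4.45, 0 and 0 at 0 DAD. *AT5G22490*, annotated as a WSD1-like O-acyltransferase, had 58.2, 48.2, 46, 54.7 and 82.8 at 10 DAD and 3.28, 3.09, 0, 0 and 0 at 0 DAD. *AT1G80130*, a TPR-like gene, had 1454, 1299, 936, 2234 and 1885 at 10 DAD and 88.5, 145, 173, 231 and 86.9 at 0 DAD (log2 fold change 3.48 ± 0.36, adjusted p = 5.84e-05).

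Genes of photosynthesis and of chlorophyll synthesis lay lower at 10 DAD nearly throughout, most of them by less than the fold threshold. Of 16 genes of chlorophyll synthesis, all had negative log2 fold changes and 7 were called lower (median -0.93). *GSA2*, an aminotransferase early in the pathway, had 309, 312, 363, 276 and 197 normalized counts at 10 DAD, against 1034, 869, 910.5, 795 and 921 at 0 DAD (log2 fold change -1.62 ± 0.13, adjusted p = 2.43e-09). The magnesium chelatase subunit *CHLI1* had -1.63, and the light-dependent reductase *PORB* -1.64. *PORA*, the form best known from etiolated seedlings, had 11, 51.9, 21.1, 13.7 and 2.33 normalized counts at 10 DAD and 226, 208, 211, 240.5 and 222 at 0 DAD (log2 fold change -3.35 ± 0.46, adjusted p = 2.59e-04). Of 47 nuclear light reaction genes, 44 had negative log2 fold changes, with a median of -0.51. Of the 47, 7 were called lower (11 without replicate 2 at 10 DAD, 4 on the scale of library size alone) and 2 higher. These shares were near those of all genes tested, 11.8% lower and 5.74% higher. *LHCB1.1*, a light-harvesting protein of photosystem II, had 23027, 27704, 28090.2, 17755 and 11977 at 10 DAD and 72421, 56347, 58487, 52841 and 56339 at 0 DAD (log2 fold change -1.43 ± 0.20, adjusted p = 3.32e-05). Its transcript is nearly identical to that of *LHCB1.3*, so reads may be shared between them. The minor antenna genes *LHCB4.3* (1.19) and *LHCB7* (1.29) rose, against the rest of the group. In the Calvin cycle, 5 of 18 genes fell (3 without replicate 5 at 10 DAD, 2 on the scale of library size alone), 4 of them small subunits of Rubisco. Transcripts of the small subunits *RBCS2B* and *RBCS3B* are nearly identical over a stretch, so reads may be shared between them. *RBCS1A* had 79670.5, 90598, 88766, 62663 and 50847 at 10 DAD and 236639, 186225, 196775, 144198 and 183782 at 0 DAD (log2 fold change -1.33 ± 0.16, adjusted p = 1.08e-06). Replicate 5 at 10 DAD was the lowest library for *RBCS1A*, *LHCB1.1* and *GSA2*. None of the 15 photorespiration genes was called. Unlike the groups above, 11 of them had positive log2 fold changes (median 0.37). *PMDH2*, a peroxisomal malate dehydrogenase, had 8607, 7790.4, 8061, 8031 and 7294 at 10 DAD and 6061, 5416, 5118, 5184 and 5501 at 0 DAD, without overlap but below the fold threshold (log2 fold change 0.56 ± 0.09, adjusted p = 4.74e-05).

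Senescence genes rose in part. Of 15 tested, 7 were called higher and none lower (median 0.58). *NAP*, a NAC factor that promotes leaf senescence, had 378, 369.5, 338, 487 and 644 normalized counts at 10 DAD and 106, 161, 157, 136 and 107 at 0 DAD (log2 fold change 1.75 ± 0.18, adjusted p = 1.77e-06). Its relative *ORE1* rose by 1.39. The cysteine protease *SAG12*, a late marker, had 236, 43, 496, 60.7 and 1201 at 10 DAD and 21.3, 60.3, 27.6, 31.2 and 156 at 0 DAD (log2 fold change 2.72 ± 1.04, adjusted p = 0.064). The levels of *SAG12* overlapped, and its call was lost without replicate 1, 2, 3 or 4 at 0 DAD or replicate 3 or 5 at 10 DAD (1.79 to 3.49 over the 10 libraries left out). The other called genes act in chlorophyll breakdown and were *PPH* (1.32), *ACD1* (1.11), *NYE2* (1.47) and *NYE1* (1.02). *NYE1* was not called without replicate 1 at 0 DAD or replicate 4 or 5 at 10 DAD (0.91 to 1.15). None of the 10 autophagy genes was clearly past the fold threshold, with log2 fold changes of -0.51 to 1.01. The highest, *ATG8B*, was the only one called and was lost without replicate 1 or 2 at 0 DAD or replicate 5 at 10 DAD (0.95 to 1.11).

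Of 27 nitrogen genes tested, 8 were lower and 4 higher, against 11.8% and 5.74% of all genes tested. *BT2*, a nitrate-inducible BTB-TAZ protein, had 4.01, 2.97, 6.71, 11.1 and 3.5 normalized counts at 10 DAD and 91.8, 54.1, 43.6, 53.2 and 115 at 0 DAD (log2 fold change -3.62 ± 0.37, adjusted p = 1.00e-07). The nitrate-inducible regulators *LBD39* (-2.27), *LBD38* (-1.88) and *LBD37* (-1.29), the nitrite reductase *NIR1* (-1.79) and the nitrate exchanger of the vacuole *CLC-A* (-1.51) fell too. The myb-like factor *AT1G25550* had 57.2, 98.7, 121, 77.8 and 74.7 at 10 DAD and 369.7, 421, 333, 288 and 397 at 0 DAD (log2 fold change -2.06 ± 0.16, adjusted p = 3.57e-09). The asparagine synthetase *ASN2* had 69.2, 72, 69, 50.4 and 67.7 at 10 DAD and 292, 218, 218, 127 and 252 at 0 DAD (log2 fold change -1.75 ± 0.18, adjusted p = 8.03e-08). In the opposite direction, *GLN1;4*, a cytosolic glutamine synthetase, had 1132, 637, 329, 1286 and 994 at 10 DAD and 98.4, 64.2, 79.1, 128 and 68.5 at 0 DAD (log2 fold change 3.37 ± 0.41, adjusted p = 1.81e-04). *GLN1;1*, another cytosolic isoform, had 3811, 3081, 2668, 4567 and 5285 at 10 DAD and 815, 1142, 1183, 1604 and 1009 at 0 DAD (log2 fold change 1.77 ± 0.23, adjusted p = 1.05e-04). *NRT2.5*, a high-affinity nitrate transporter of nitrogen-starved plants, had 59.2, 37.8, 19.2, 24.8 and 32.7 at 10 DAD and 0, 4.64, 1.78, 3.67 and 2.51 at 0 DAD (log2 fold change 3.79 ± 0.52, adjusted p = 4.18e-06). A stretch of the *NRT2.5* transcript is nearly identical to that of another counted gene, so its reads may be shared. *NRT1.5*, a transporter that loads nitrate into the xylem of roots, rose by 1.60.

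All 16 sulfur genes tested had positive log2 fold changes, 7 were called higher, and the median was 0.87. *LSU2*, a small protein induced by low sulfur, had 369, 329, 261, 422 and 616 normalized counts at 10 DAD and 133, 184, 143, 119 and 114 at 0 DAD (log2 fold change 1.53 ± 0.21, adjusted p = 7.40e-05). Its relative *LSU1* (1.88), the glutathione-degrading enzyme *GGCT2;1* (1.47) and the sulfate reduction enzymes *APR1* (1.22) and *APR3* (1.14) rose with it. Phosphate starvation genes showed no common direction, with 1 higher, *MGD3* (1.19; 2 higher without replicate 2, 3 or 4 at 0 DAD or replicate 3 at 10 DAD), and 2 lower, *PHT1;4* (-1.36) and *AT4* (-1.32), of 16 tested.

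**Figure D4:**
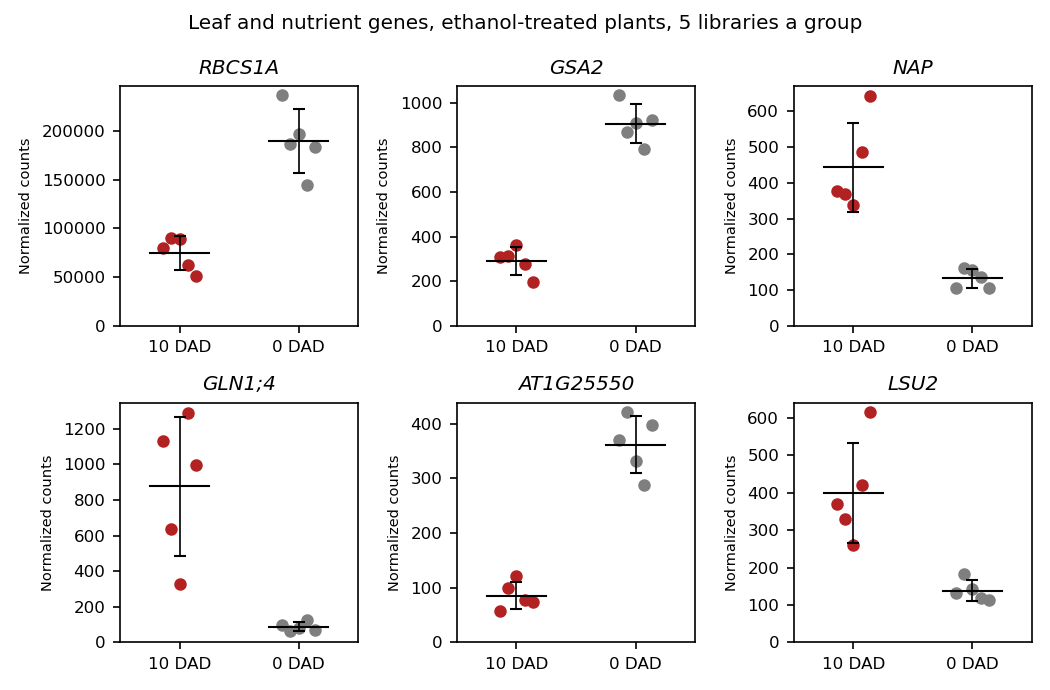
Normalized counts of 6 genes of photosynthesis, chlorophyll synthesis, senescence, nitrogen and sulfur in ethanol-treated plants at 10 DAD (red, left) and 0 DAD (grey, right); points are libraries, the line and bar are the mean and SD of 5 libraries. *RBCS1A*, *GSA2* and *AT1G25550* lie lower and *NAP*, *GLN1;4* and *LSU2* higher at 10 DAD, all without overlap.

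Markers of sugar starvation, which rise when a leaf runs short of carbohydrate, were lower at 10 DAD in 7 of 24 genes tested and higher in 1, the branched-chain aminotransferase *BCAT2* (1.40). *ASN1*, the dark-inducible asparagine synthetase, had 43.1, 96.5, 103, 62.4 and 23.3 normalized counts at 10 DAD and 373, 493, 423, 452 and 665 at 0 DAD (log2 fold change -2.83 ± 0.35, adjusted p = 1.42e-04). The dark-inducible genes *DIN10* (-2.21), *DIN11* (-2.57) and *SEN1* (-1.65) and the wall glycosidase *BXL1* (-1.26) fell too. For scale, plants before the ethanol treatment (5 libraries) held 31.1 to 67.4 of *ASN1* and 213 to 321 of *BXL1* in normalized counts. Both genes lay above those ranges at 0 DAD in ethanol-treated plants. Water-treated plants at 0 DAD lay above them too, with 288 to 534 of *ASN1* and 612 to 896 of *BXL1*. In ethanol-treated plants at 10 DAD *ASN1* overlapped its earlier range, and *BXL1*, at 376 to 572, was still above it. Of 30 starch genes, 4 rose and 1 fell, against 5.74% and 11.8% of all genes tested. On the scale of library size alone, 8 starch genes rose, as did 1725 of all 16918 genes. *GBSS1*, which makes amylose, had 278, 229, 219, 308 and 305 at 10 DAD and 82, 108, 86.2, 99.1 and 92.8 at 0 DAD (log2 fold change 1.53 ± 0.14, adjusted p = 9.29e-09). The beta-amylase *BAM6* rose by 1.92, and *BAM9* fell by 1.31 log2 units.

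The enzymes that take ethanol into metabolism stayed below the fold threshold between these times. *ADH1*, the alcohol dehydrogenase, had 203, 193, 138, 155 and 190.2 normalized counts at 10 DAD and 94.3, 119, 115, 130.3 and 83.6 at 0 DAD. *ALDH2B4*, a mitochondrial aldehyde dehydrogenase, had 1097, 1099, 1315, 1338 and 1349.8 at 10 DAD and 779, 913, 854, 857 and 870.2 at 0 DAD. For both genes the groups were without overlap but below the fold threshold (log2 fold changes 0.72 and 0.55, adjusted p = 4.94e-04 and 4.50e-05). *ALDH2C4* had 413, 473, 569, 549 and 533 at 10 DAD and 464, 487, 516, 459 and 491 at 0 DAD (log2 fold change 0.08 ± 0.10, adjusted p = 0.518). *ALDH2B7* had 25.1, 43.8, 49.9, 47.8 and 58.3 at 10 DAD and 54.9, 58.8, 40, 55.1 and 33.4 at 0 DAD (log2 fold change -0.09 ± 0.24, adjusted p = 0.798). Both pairs of groups overlapped. Among 12 genes of ethanol and acetate metabolism and gluconeogenesis, 3 were called higher and none lower. *PPDK*, the pyruvate, orthophosphate dikinase that feeds gluconeogenesis, had 216, 166, 175, 271 and 254 at 10 DAD and 72.1, 107, 59.6, 73.4 and 73.6 at 0 DAD (log2 fold change 1.49 ± 0.17, adjusted p = 3.88e-07). The pyruvate decarboxylase *PDC2* rose by 1.26. The call of the third gene, the acetate-activating enzyme *ACN1*, was lost without replicate 4 at 10 DAD (0.996). Of the group VII ERF genes, *EBP* (also known as RAP2.3) had the third smallest adjusted p of the genes named here, with 3408, 4155, 4150.1, 3782 and 3214 at 10 DAD and 695, 556, 637, 938 and 785 at 0 DAD (log2 fold change 2.39 ± 0.13, adjusted p = 1.90e-11).

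The anthocyanin regulators *PAP1* and *PAP2* rose, and several enzymes of the pathway were not called. The MYB factor *PAP1* had 401, 210.0, 258, 598 and 677 normalized counts at 10 DAD and 24.6, 101, 122, 134 and 47.6 at 0 DAD (log2 fold change 2.38 ± 0.53, adjusted p = 0.00595). *PAP2* had 140.5, 121, 123, 335 and 377 at 10 DAD and 33.6, 47.2, 55.1, 47.7 and 28.4 at 0 DAD (log2 fold change 2.39 ± 0.43, adjusted p = 0.00147). In both, replicates 4 and 5 at 10 DAD were the highest. The MYB-related regulator *CPC*, of the same list, fell, with 6.02, 11.9, 2.88, 4.27 and 12.8 at 10 DAD and 34.4, 17.8, 23.1, 36.7 and 22.6 at 0 DAD (log2 fold change -1.78 ± 0.43, adjusted p = 0.00167). The bHLH regulator *TT8* lay at the threshold (log2 fold change 1.01 ± 0.47, adjusted p = 0.0834), and its call was lost without replicate 1, 3, 4 or 5 at 0 DAD or replicate 4 or 5 at 10 DAD (0.77 to 1.20). Further regulators on the list were too low to be tested. The glutathione transferase *GSTF12*, of anthocyanin transport, rose by 1.67, and the enzymes *CHS* (0.11), *F3H* (0.36) and *DFR* (0.86) were not called. Of 21 genes of this pathway 6 were higher (10 on the scale of library size alone) and 2 lower (4 without replicate 1, 3 or 4 at 10 DAD). Over all genes tested, 5.74% were higher and 11.8% lower. Of 23 genes of aliphatic glucosinolate synthesis, 22 had positive log2 fold changes (median 0.72). Only *FMOGS-OX3* was called, with 580.0, 440.0, 463, 439 and 504 at 10 DAD and 216, 227, 247, 224 and 219 at 0 DAD (log2 fold change 1.11 ± 0.10, adjusted p = 1.97e-08). That count was 2 without replicate 4 at 0 DAD, without replicate 4 at 10 DAD or without replicate 5 at 10 DAD, and 11 on the scale of library size alone. Jasmonate genes went both ways. *MYC2*, the master regulator, had 302, 257, 269, 338 and 513 at 10 DAD and 92.6, 119, 139.6, 75.3 and 163 at 0 DAD (log2 fold change 1.50 ± 0.23, adjusted p = 1.60e-04). Its storage-protein target *VSP1* had 66.2, 43, 65.2, 48.7 and 64.2 at 10 DAD and 155, 325, 535, 646 and 425 at 0 DAD (log2 fold change -2.84 ± 0.38, adjusted p = 2.72e-04).

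The florigen gene *FT*, which is expressed in leaves and starts flowering, had 113, 81.6, 147, 126 and 113 normalized counts at 10 DAD and 13.9, 18.6, 23.1, 23.9 and 20.1 at 0 DAD (log2 fold change 2.58 ± 0.21, adjusted p = 3.06e-09). *FUL*, a MADS-box gene that acts after it, rose by 1.25. *SOC1*, another flowering activator, had 0.82 and was not called. Of the floral organ genes tested, *SEP3* (-0.29) was not called. *AP1* had 5.02, 5.19, 3.84, 0 and 1.17 at 10 DAD and 20.5, 10.1, 13.3, 27.5 and 16.7 at 0 DAD (log2 fold change -2.40 ± 0.57, adjusted p = 0.00151). *SEP1* had 90.3, 23.7, 30.7, 13.7 and 26.8 at 10 DAD and 13.9, 5.41, 8.89, 25.7 and 12.5 at 0 DAD (log2 fold change 1.57 ± 0.50, adjusted p = 0.0163), and was no longer called without replicate 1 at 10 DAD (0.94). Of 19 clock genes, 5 were higher and 1 lower, against 5.74% and 11.8% of all genes tested. *CCA1*, a morning gene, had 268, 258, 224, 293 and 210.0 at 10 DAD and 119, 105, 87.1, 103 and 104 at 0 DAD (log2 fold change 1.29 ± 0.13, adjusted p = 6.41e-08). The other morning genes *LHY* (1.23), *RVE8* (1.44) and *LNK1* (1.09) rose with it, as did *RVE1* (1.07, and 0.99, not called, without replicate 1 at 0 DAD). The evening genes *GI* (0.35) and *ELF4* (-0.26) were not called. The sources used here give no hour of harvest, so the part of a different hour in these values was not tested.

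The same step in water-treated plants gave a like number of calls, 1045 higher and 1767 lower of 16694 tested (6.26% and 10.6%; 5 libraries each at 10 and 0 DAD, none shared with the ethanol-treated groups). Of the genes tested in both steps, 606 were called higher in both, which is 67.1% of the ethanol list and 58.6% of the water list. Another 1375 were called lower in both, which is 71.4% of the ethanol list and 80.5% of the water list. No gene was called in opposite directions. The cell cycle group had 19 of 21 genes lower in water-treated plants too (median -2.39). The drought markers had 5 called higher in the ethanol-treated plants and 9 in the water-treated plants, with medians of 0.49 and 0.97. For *RD29A* the log2 fold change was 0.92 with ethanol and 1.66 with water (difference of the log2 fold changes -0.72 ± 0.32, adjusted p = 0.527), a difference that was not called. *KIN2*, a small protein of the cold and ABA response, came closest of the drought markers, with 0.26 after ethanol and 1.24 after water (difference of the log2 fold changes -0.96 ± 0.22, adjusted p = 0.0756), past the false discovery rate but not the fold threshold. It was called without any of 6 libraries, replicate 5 at 0 DAD or 4 at 10 DAD of the ethanol-treated and replicate 2 or 4 at 0 DAD or 1 or 2 at 10 DAD of the water-treated plants (-1.07 to -0.84 over the 20 libraries left out). None of the 21 markers was called in this test.

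Tested directly, the change from 0 to 10 DAD differed between ethanol- and water-treated plants for 21 of 17531 genes. The log2 fold change of 4 was higher and that of 17 lower in the ethanol-treated plants (0.0228% and 0.097%; 1559 genes had an unadjusted p under 0.05). DESeq2 called 10 higher and 46 lower. The number depended on single libraries. It was 7 higher and 41 lower without replicate 2 at 10 DAD of the ethanol-treated plants, and 2 higher and 10 lower without replicate 5 of that group. It was 2 higher and 11 lower without replicate 4 at 0 DAD, and 11 were lower without replicate 2 at 0 DAD or 1 at 10 DAD of the ethanol-treated plants. Among the water-treated plants, 7 were higher and 28 lower without replicate 4 and 11 were lower without replicate 5 at 0 DAD, and 10, 34 and 31 without replicates 3, 4 and 5 at 10 DAD. *SQP1*, a gene of the squalene epoxidase family, had 916, 767, 947, 925 and 994 normalized counts at 10 DAD and 389, 354, 388, 404 and 266 at 0 DAD after ethanol. After water it had 432, 587, 691, 499 and 516 at 10 DAD and 571, 499, 448, 416 and 482 at 0 DAD (difference of the log2 fold changes 1.17 ± 0.17, adjusted p = 6.74e-04). *FMOGS-OX1*, which oxidizes the side chain of aliphatic glucosinolates, had 349, 273, 364, 267 and 301 at 10 DAD and 133, 139, 201, 211 and 178 at 0 DAD after ethanol. After water it had 196, 181, 209, 154 and 189.9 at 10 DAD and 235, 169, 270.4, 174 and 285 at 0 DAD (difference of the log2 fold changes 1.14 ± 0.22, adjusted p = 0.0156). The ethanol-treated groups did not overlap for this gene, and the water-treated groups did. Its difference was not called in the fit of all 7 groups (1.15, adjusted p = 0.457). The myb-like factor *AT1G70000* rose in both, by 2.23 in ethanol- and 1.18 in water-treated plants (difference of the log2 fold changes 1.07 ± 0.22, adjusted p = 0.0293), and the difference was lost without replicate 4 at 0 DAD (0.996) or replicate 5 at 10 DAD (0.969) of the ethanol-treated plants.

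On the lower side, *AT1G68600*, an aluminum-activated malate transporter family gene, had 315, 309, 395, 384 and 426 normalized counts at 10 DAD and 229, 320.2, 301, 393 and 177 at 0 DAD after ethanol. After water it had 494, 542, 564, 432 and 669 at 10 DAD and 113, 109, 144, 116 and 128 at 0 DAD (difference of the log2 fold changes -1.77 ± 0.23, adjusted p = 1.87e-04). At 10 DAD the ethanol-treated plants lay lower than the water-treated plants and at 0 DAD higher, both without overlap. *DRM1*, a dormancy-associated gene known from resting buds, had 900.1, 1065, 1016, 1024 and 879.7 at 10 DAD and 1485, 1375, 1443, 1896 and 1936 at 0 DAD after ethanol. After water it had 1322, 859, 1244, 1181 and 1100.1 at 10 DAD and 766, 795, 913, 937 and 787 at 0 DAD (difference of the log2 fold changes -1.18 ± 0.17, adjusted p = 2.92e-04). Its levels at 10 DAD overlapped between the treatments, and those at 0 DAD were higher in ethanol-treated plants without overlap. Its relative *DRM2* had a log2 fold change of -0.63 in ethanol- and 0.51 in water-treated plants (difference of the log2 fold changes -1.11 ± 0.24, adjusted p = 0.0627). The difference for *DRM2* was not called without replicate 4 or 5 at 0 DAD or 3, 4 or 5 at 10 DAD of the ethanol-treated plants, nor without replicate 3 or 5 at 0 DAD or 1 or 3 at 10 DAD of the water-treated plants (-1.23 to -0.94). It was not called either on the scale of library size alone, in the fit of all 7 groups or under a false discovery rate of 0.05. *RTFL1*, of a family of small peptides that limit leaf length, had 1, 1.48, 2.88, 0 and 4.67 at 10 DAD and 25.4, 25.5, 37.3, 36.7 and 45.1 at 0 DAD after ethanol. After water it had 31.6, 14.3, 18.8, 8.39 and 16.2 at 10 DAD and 18.1, 22.6, 38.9, 23.7 and 29.8 at 0 DAD (difference of the log2 fold changes -3.53 ± 0.63, adjusted p = 0.0123). The lipase *LTL1* fell in both, with log2 fold changes of -4.21 in ethanol- and -1.88 in water-treated plants (difference of the log2 fold changes -2.31 ± 0.48, adjusted p = 0.0756), and its difference was called in only 5 of 20 fits with 1 library left out, those without replicate 2 at 10 DAD of the ethanol-treated plants or replicate 4 at 0 DAD or 1, 4 or 5 at 10 DAD of the water-treated plants (-2.55 to -1.93). It was not called under a false discovery rate of 0.05. The water-treated libraries at 10 DAD were spread widely for this gene, at 484, 323, 262, 103 and 110.4, against 60.2, 97.9, 37.4, 58.1 and 58.3 in the ethanol-treated ones. Differences were also called for *P1R3* (-3.59), *RTFL21*, of the family of *RTFL1* (-2.15), and the lipid-transfer family gene *AT5G55450* (-1.95), with adjusted p = 0.075, 0.0712 and 0.0703. With 1 of the 20 libraries left out, these calls were lost in 14 fits for *P1R3*, 11 for *RTFL21* and 8 for *AT5G55450*. For *P1R3* and *AT5G55450*, the fit without replicate 4 at 0 DAD of the ethanol-treated plants was among them. None of the 3 was called in the fit of all 7 groups or under a false discovery rate of 0.05.

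**Figure D5:**
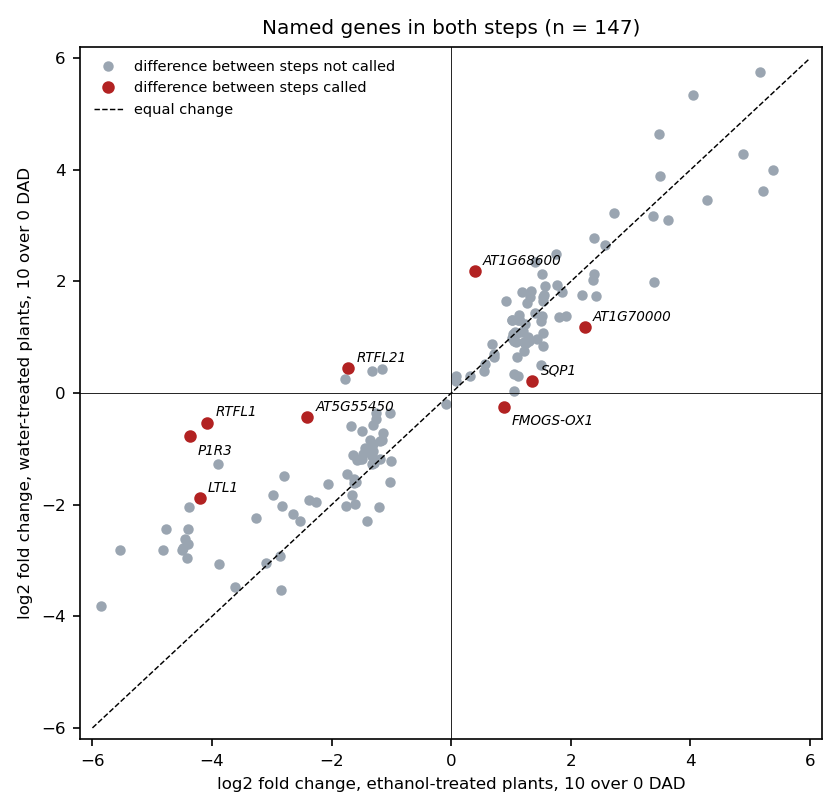
log2 fold change from 0 to 10 DAD of the genes picked by the naming rule in ethanol-treated plants (horizontal axis) and water-treated plants (vertical axis), with the line of equal change dashed; red points are genes whose difference between the steps was called. Of 147 genes plotted, 9 are red (*DRM1* and *DRM2*, described above, were chosen outside the rule and are not plotted). Since most of the genes were named for their change in ethanol-treated plants, the plot does not compare the sizes of the steps over all genes.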

How the data were processed

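Shoots of ethanol-treated *A. thaliana* were measured by 3'-end RNA-seq (Lasy-Seq), 5 libraries each at 10 and 0 DAD, with water-treated libraries of the same times for comparison. The authors trimmed reads (Trimmomatic), aligned them to TAIR10 (HISAT2), counted them per gene by strand (featureCounts) and deposited raw counts, which were tested here. They also deposited normalized counts, a signal in which each library is divided by 1 factor, used here only for levels. Every column matched a library.

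Counts were fitted with edgeR 4.0.16 (R 4.3.3; filterByExpr, TMM, robust quasi-likelihood F test). Standard errors were taken from the log2 fold change and F. Called genes had a Benjamini-Hochberg adjusted p (false discovery rate) below 0.1 and changed by 1 log2 unit or more. The step difference was tested as an interaction over 20 libraries. Alternatives were DESeq2 1.42.0, other scalings, filters, thresholds and dispersions, a fit of all groups, a replicate block and each library left out. The script recovered known changes in simulated counts, in which few genes changed, equally in both directions.

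Named genes were up to 12 per direction with the largest log2 fold change among called genes without overlap and averaging 20 counts or more, up to 3 called per direction in each of 37 gene lists by adjusted p, up to 5 per direction of the step difference, and 10 genes the study discusses. Further list members were named after their values were seen. The members, lists and the MSA motif were chosen with earlier results of these data known. Gene names, gene starts and promoter sequences came from RefSeq (TAIR10.1), in which 26720 of 27417 IDs were matched. The count files hold no coordinates. No pair of libraries within a group agreed to within counting noise (lowest chi-square per degree of freedom 4.40). Totals of 3781405 to 9786902 counts limit the precision of genes with few counts.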

Additional observations from a re-analysis of the deposited data

Results flagged for a closer look

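In 23 of the 378 groups of 5 values examined in ethanol-treated plants, 1 library lay apart from the other 4 by a gap of more than 0.71 of the range, which chance gives in about 1 in 20 groups. Replicate 4 at 0 DAD, the library with the fewest counts (3781405), was the one in 8 of them. Its normalized counts were the highest of the group for *RD29A* (1419), *GOLS2* (338), *HAI2* (97.3), *XTH24* (2071), *PPH* (512) and *SOC1* (854), and the lowest for *NIR1* (448). For all of these genes it lay on the side of the libraries at 10 DAD. Replicate 1 at 0 DAD was highest for *LHCB1.1* (72421) and *LHCB1.3* (178858) and lowest for *ORE1* (45.9). At 0 DAD, replicate 3 was highest for *LAC2* (8.89) and *AT1G13635* (4.45), and replicate 5 for *SAG12* (156) and *AT1G22480* (10.9). At 10 DAD, replicate 1 was highest for *AT1G13635* (78.3), *HIK* (20.1) and *SEP1* (90.3). Replicate 3 was highest for *LHY* (72.9), replicate 4 was lowest for *RVE1* (23.9) and *ASN2* (50.4), and replicate 5 was highest for *HB1* (11.7) and *NRT1.5* (188).

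The change from 0 to 10 DAD differed between ethanol- and water-treated plants by the interaction test (edgeR) for 11 of the genes named here. The difference of the log2 fold changes was above 0 for *FMOGS-OX1* (1.14), *AT1G70000* (1.07) and *SQP1* (1.17). It was below 0 for *DRM1* (-1.18), *DRM2* (-1.11), *AT1G68600* (-1.77), *AT5G55450* (-1.95), *RTFL21* (-2.15), *LTL1* (-2.31), *RTFL1* (-3.53) and *P1R3* (-3.59). At 10 DAD the levels of ethanol- and water-treated plants did not overlap for 8 of these genes, the exceptions being *DRM1*, *DRM2* and *P1R3*. For these exceptions the levels at 0 DAD did not overlap. The levels of *SQP1* and *AT1G68600* did not overlap at 0 DAD either, so their differences also rest on the starting level.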

How the results depend on the processing

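Of the 150 named genes tested in ethanol-treated plants, 138 were called. Over the 10 libraries left out in turn, 18 of them lost the call at least once and none changed sign, and 13 lost it under another setting. The counts of 971 higher and 2000 lower genes were 1189 and 2438 with DESeq2, 974 and 1995 with RLE factors, 1377 and 2401 with every gene of at least 1 count, 819 and 1684 above a mean of 20 counts and 1099 and 2210 in a fit of all 7 groups. Scaling by library size alone gave 1725 higher genes. Without the fold threshold, 4345 were higher and 4548 lower in ethanol-treated plants and 4379 and 4210 in water-treated plants. The difference between both steps (4 higher, 17 lower) was 10 and 46 with DESeq2, 13 and 32 without the fold threshold, 9 higher on library size alone, 10 lower under a false discovery rate of 0.05 and 30 lower with non-robust dispersion. Without 1 library it ranged over 2 to 7 higher and 10 to 41 lower. The cause of these differences was not tested. Small values near 0 changed sign, *ALDH2B7* to 0.16 on library size alone and -0.208 to 0.0804 without 1 library, and *RD29B* -0.0093 to 0.141 without 1 library. Median log2 fold changes of the salicylate, guard cell and wax lists were positive (0.12, 0.16 and 0.10) on library size alone. Without 1 library, the difference in total counts ranged from -2310000 to -808200, with an exact p of 0.0238 without replicate 4 at 0 DAD, and that in the chloroplast share from -0.618 to -0.208 percentage points, with an exact p of 0.0397 without replicate 2 at 10 DAD.

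Replicate numbers did not pair the libraries, since deviations of the same-numbered libraries from their group means correlated at -0.09 to 0.19 and 2 of 5 numbers matched best with themselves. With the replicate block, 977 genes were higher and 2020 lower. Of the genes described, *XTH24*, *NYE1* and *TT8* and the differences of *LTL1*, *DRM2* and *AT5G55450* were not called with it. On simulated counts with a log2 change of 1.5, edgeR recovered 87 of 100 changed genes, and with 3 all 100.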

Other observations

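The remaining gene groups of stress and hormones are given here for ethanol-treated plants at 10 against 0 DAD. Over all genes tested, 5.74% were called higher and 11.8% lower. Of 12 antioxidant genes, 3 were lower and none higher (median log2 fold change 0.02). Among them were 2 superoxide dismutases of the chloroplast. *CSD2*, with a copper and zinc centre, had 1773, 1491, 1454, 1464 and 1843 normalized counts at 10 DAD and 2193, 2959, 4512, 5672 and 7580.4 at 0 DAD (log2 fold change -1.50 ± 0.32, adjusted p = 0.00483), and *FSD2*, with an iron centre, had 73.3, 46.7, 52.7, 51.3 and 42 at 10 DAD and 178, 173, 163, 127 and 168 at 0 DAD (log2 fold change -1.60 ± 0.16, adjusted p = 7.33e-08). Both groups of libraries were apart without overlap. A stretch of the *FSD2* transcript is nearly identical to that of another counted gene, so its reads may be shared. Of 11 heat shock genes, 1 was lower (2 by DESeq2) and none higher. It was *BIP2*, a chaperone of the endoplasmic reticulum (-1.33), whose transcript is nearly identical to that of another BIP gene. Of 8 hypoxia genes, *EBP* rose as described and the hemoglobin gene *HB1* fell, with 4.01, 3.71, 5.75, 4.27 and 11.7 at 10 DAD and 22.9, 15.5, 16.9, 14.7 and 22.6 at 0 DAD (log2 fold change -1.68 ± 0.44, adjusted p = 0.00321). The median log2 fold change of the hypoxia genes was 0.61, with 6 of 8 positive. On the scale of library size alone, 3 of them were higher.

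Of 27 auxin and cytokinin response genes, 5 were lower (3 without replicate 1 at 0 DAD or replicate 4 or 5 at 10 DAD) and 2 higher. The auxin-inducible *IAA19* had 23.1, 26.7, 26.8, 16.2 and 26.8 at 10 DAD and 70.5, 74.3, 72.9, 55.1 and 66.9 at 0 DAD (log2 fold change -1.50 ± 0.22, adjusted p = 8.10e-06), and the cytokinin response regulator *ARR6* had 20.1, 33.4, 24, 26.5 and 16.3 at 10 DAD and 117, 39.4, 81.8, 25.7 and 58.5 at 0 DAD (log2 fold change -1.41 ± 0.33, adjusted p = 0.00214). *IAA27* (1.24) and *ARR16* (1.23), of the same families, rose. Of 15 indolic glucosinolate genes, 1 was higher, *CYP81F3* (1.33). Of 15 salicylate defence genes, 1 was lower, the pathogenesis-related gene *PR5* (log2 fold change -1.16 ± 0.45, adjusted p = 0.0667). Its call was lost in 8 of the 10 fits with 1 library left out (-1.65 to -0.91), all but those without replicate 4 at 0 DAD or replicate 3 at 10 DAD, on the scale of library size alone and under a false discovery rate of 0.05. The count over the list was 0 without replicate 3 or 5 at 0 DAD, and 2 without replicate 4 at 0 DAD or replicate 5 at 10 DAD. Of 28 jasmonate and ethylene genes, 4 were higher (2 without replicate 1 or 5 at 0 DAD or replicate 5 at 10 DAD) and 3 lower (5 without replicate 1 at 0 DAD).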
